A study of Mus musculus with 2 samples.

Results

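The globins and red cell genes were followed between a retina sample labelled Samd7 KO and a retina sample labelled wild type. The set holds 6 red cell genes (Hba-a1, Hbb-bt, Hbb-bs, Alas2, Slc4a1 and Epb42) and, as a contrast, the neuronal globins Ngb and Cygb. A gene was followed through every non-control probe on the array whose target is one of its RefSeq transcripts. Of the 8 genes listed, 7 had such a probe, out of 21368 named genes on the array, and Hbb-bs had none, so it is named here without a value. Total RNA came from dissected mouse retinas at postnatal day 12, and each group is 1 array, a Cy3-labelled 1-colour Agilent expression array. The labels give no strain, no number of animals or retinas per sample, and no description of the deleted stretch of Samd7. With 1 array per group there was no replicate and no test, and every difference below is between these 2 arrays, not between genotypes.

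Red cells carry oxygen on haemoglobin, a tetramer of alpha and beta globin chains, each holding a heme group. Alas2 is the erythroid form of the enzyme that starts heme synthesis, Slc4a1 is band 3, the anion exchanger of the red cell membrane, and Epb42 is protein 4.2, which ties band 3 to the membrane skeleton. Neuroglobin (Ngb) is a heme protein of neurons and is found in the retina, while cytoglobin (Cygb) is made in fibroblast-like cells and in some neurons. A dissected retina holds blood vessels and the red cells in them. In RNA from whole tissue, more red cells and more RNA per red cell cannot be told apart.

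Promoter sequence was available for 5 of the 8 genes, and the 250 bases before each start are shown. Whether the motifs in them bear on the differences below was not tested. The sequences are from RefSeq (GRCm38.p6), read 5′ to 3′ on the strand of the gene. Capitals mark 4 motifs searched on both strands: the GATA core (GATA with A or T before it and A or G after it), the CACCC box, the CCAAT box and the TATA box (TATAA). A motif on the opposite strand appears as its reverse complement, so that the CCAAT box then reads ATTGG, the CACCC box reads GGGTG and the TATA box reads TTATA.
Hba-a1, chr11:32283422-32283671, plus strand: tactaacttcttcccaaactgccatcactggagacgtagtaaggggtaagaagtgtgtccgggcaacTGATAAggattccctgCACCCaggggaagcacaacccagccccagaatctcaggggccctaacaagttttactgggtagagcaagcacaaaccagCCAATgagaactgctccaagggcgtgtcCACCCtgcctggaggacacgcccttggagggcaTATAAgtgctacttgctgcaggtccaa
Hbb-bt, chr7:103813924-103814173, minus strand: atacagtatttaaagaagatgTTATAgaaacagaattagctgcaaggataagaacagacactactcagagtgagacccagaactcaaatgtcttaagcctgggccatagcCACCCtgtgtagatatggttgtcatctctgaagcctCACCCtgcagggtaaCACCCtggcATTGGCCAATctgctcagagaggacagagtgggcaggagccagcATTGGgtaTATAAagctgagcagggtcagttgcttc
Hbb-bs, chr7:103827929-103828178, minus strand: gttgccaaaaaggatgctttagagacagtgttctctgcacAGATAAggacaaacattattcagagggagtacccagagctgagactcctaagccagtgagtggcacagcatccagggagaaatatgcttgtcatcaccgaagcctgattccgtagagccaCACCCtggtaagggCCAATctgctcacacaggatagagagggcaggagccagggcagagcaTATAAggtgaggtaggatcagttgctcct
Alas2, chrX:150547167-150547416, plus strand: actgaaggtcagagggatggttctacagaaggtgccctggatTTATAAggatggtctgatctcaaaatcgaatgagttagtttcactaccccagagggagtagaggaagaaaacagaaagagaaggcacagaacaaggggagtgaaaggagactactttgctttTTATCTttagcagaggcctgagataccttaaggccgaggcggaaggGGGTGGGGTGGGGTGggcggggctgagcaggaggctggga
Epb42, chr2:121036878-121037127, minus strand: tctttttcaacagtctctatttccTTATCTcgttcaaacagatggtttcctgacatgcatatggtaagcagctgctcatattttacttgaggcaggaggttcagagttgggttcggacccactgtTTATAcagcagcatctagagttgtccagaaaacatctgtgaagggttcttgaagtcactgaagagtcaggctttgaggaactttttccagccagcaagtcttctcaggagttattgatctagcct

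The window of Hba-a1, an adult alpha globin, held all 4 motifs, with the GATA core 183 bases before the start, CACCC boxes at 167 and 60, the CCAAT box at 88 and the TATA box at 27. The window of Hbb-bs, an adult beta globin, also held all 4, at 210 (GATA), 90 (CACCC), 76 (CCAAT) and 29 (TATA). Hbb-bt, the other adult beta globin, had CACCC boxes at 140, 104 and 89, CCAAT boxes at 80, 75 and 36, TATA boxes at 229 and 28, and none of these GATA letters in the window. Its CCAAT boxes at 80 and 75 lie side by side, the first on the opposite strand like those at 36 and 229. Alas2 had the GATA core at 86 and 3 consecutive CACCC boxes between 40 and 30, all on the opposite strand, and a TATA box read on both strands in overlapping letters at 208 and 207, but no CCAAT box. Epb42 had the GATA core at 226 and a TATA box at 125, both on the opposite strand, and neither a CACCC nor a CCAAT box. Over 32851 promoters in the same table, windows of this length held the GATA core in 26.5%, a CACCC box in 52.0%, a CCAAT box in 33.8% and a TATA box in 22.8%, and 355 promoters (1.08%) held all 4. The 2 alpha globin genes are near copies here: the windows of Hba-a1 and Hba-a2, taken from 250 bases before to 50 after the start, were identical over 297 of 297 bases at a shift of 3. The 100 bases nearest the start matched at 74 positions between Hbb-bt and Hbb-bs, and at 35 between Hba-a1 and Hbb-bt. A motif match is a description of letters, and no binding was measured.

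The targeted gene, Samd7, went against the labels. Its probe read 48967 on the array labelled Samd7 KO and 14769 on the array labelled wild type, a log2 difference of 1.78 (3.44-fold higher on the KO-labelled array). Where this probe lies relative to the deleted stretch is not known here, so the value checks neither label, and every direction below is that of the labels as given, with the arrays called the KO array and the wild-type array after their labels. The 2 arrays were otherwise alike in brightness. The spots well above background were 60.9% on the KO-labelled and 60.3% on the wild-type-labelled array, the 75th percentile of processed signal was 554 on the KO-labelled and 574 on the wild-type-labelled array, no spot was saturated, and 0 member spots carried an outlier flag. Levels below are log2 processed signal minus the log2 75th percentile of the array, and differences are Samd7 KO minus wild type on that log2 scale.

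Spots repeated within an array set the technical precision. The technical SD of the difference was 0.05 for probes at a mean level of 0 or more (174 probes), 0.09 between -2 and 0 (75 probes), 0.19 between -4 and -2 (51 probes) and 0.33 below -4 (20 probes). The scanner's own error for a spot gives a wider figure, 0.20 on the log2 scale for bright members. Neither figure holds the spread between animals.

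Among the red cell genes, the adult globins were brighter on the KO-labelled array, Alas2 was slightly brighter, and the membrane genes Slc4a1 and Epb42 were dimmer. Hba-a1, an alpha chain of adult haemoglobin, read 10548 ± 1055 on the Samd7 KO array, against 8778 ± 878 on the wild-type array (scanner error), which are log2 levels of 4.25 on the KO array and 3.93 on the wild-type array. The difference of 0.32 (1.247-fold) was larger than the technical SD of 0.05 and larger than the scanner error of 0.20. Of the 8728 named genes at a mean level of 0 or more, 300 (3.44%) were at least as high on the KO-labelled array as Hba-a1.

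Hbb-bt, a beta chain of adult haemoglobin, read 5427 ± 543 on the Samd7 KO array and 4151 ± 415 on the wild-type array, or log2 levels of 3.29 (KO) and 2.85 (wild type). Its difference of 0.44 (1.36-fold) was the highest of the 7 measured genes, again above both the technical SD and the scanner error, and 205 of the 8728 genes in that range of levels (2.35%) were at least as high. The alpha and beta chain values differed between the arrays by similar amounts, though each is 1 probe on 1 array per group.

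Alas2 read 191 ± 19.3 on the Samd7 KO array, against 171 ± 17.5 on the wild-type array, or log2 levels of -1.54 (KO) and -1.75 (wild type). The difference of 0.21 (1.16-fold) exceeded the technical SD of 0.09 and equalled the scanner error of 0.21 to that precision. Between levels of -2 and 0, 260 of 3095 genes (8.4%) were at least as high.

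Slc4a1 lay near the lower limit of the array, with 21.9 ± 3.72 on the Samd7 KO array and 32.6 ± 4.76 on the wild-type array, or log2 levels of -4.66 (KO) and -4.14 (wild type). Its difference was -0.52 (1.44-fold lower on the KO-labelled array), set against a technical SD of 0.33 and a scanner error of 0.32, and 342 of the 1682 genes below -4 (20.3%) were at least as low. That share places Slc4a1 inside the ordinary scatter of dim probes.

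Epb42 differed most. It read 17.6 ± 3.24 on the Samd7 KO array and 81.1 ± 10.5 on the wild-type array, or log2 levels of -4.97 (KO) and -2.82 (wild type). The difference was -2.15 (4.44-fold lower on the KO-labelled array), and 11 of 2424 genes with a mean level between -4 and -2 (0.454%) were at least as low. Its level on the KO array alone lay below that range, where the technical SD was 0.33 against 0.19 within the range. The size rests on the background correction at this dim spot: its median signal was 61.5 over a local background of 35 on the KO array and 107 over 34 on the wild-type array, and subtracting one from the other gave 26.5 on the KO array, 73.0 on the wild-type array and a difference of -1.42. With the normexp correction and an offset of 50 the difference was -0.63, under 2-fold, and Slc4a1 was -0.12.

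**Figure D1:**
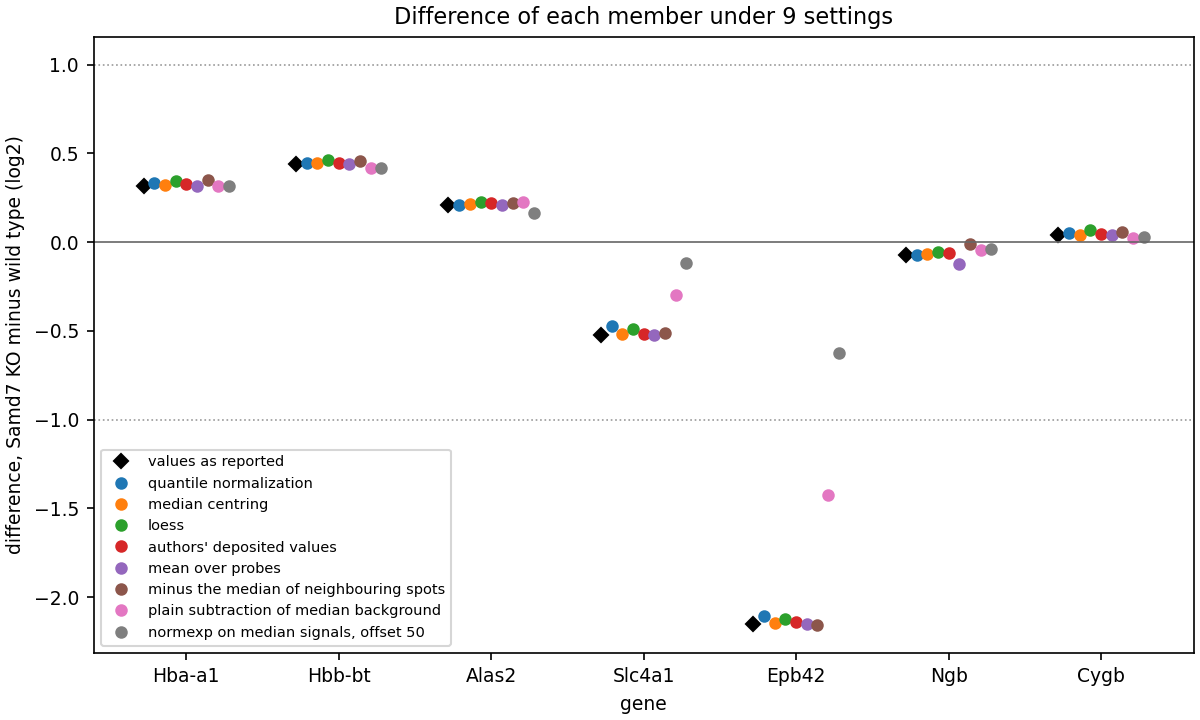
Difference of each member (Samd7 KO minus wild type, log2) under the values as reported (black diamonds) and 8 other ways of processing the same arrays (coloured points); dotted lines mark 2-fold. The points of Hba-a1, Hbb-bt and Alas2 stay above 0 under every setting, and the points of Epb42 spread from -2.16 to -0.63 and those of Slc4a1 from -0.52 to -0.12.

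The neuronal globins were close to level between the arrays. Ngb was read by 2 probes. One read 120 ± 12.4 on the Samd7 KO array and 131 ± 13.5 on the wild-type array, a difference of -0.07, and the other read 104 ± 10.8 on the KO array and 122 ± 12.6 on the wild-type array, a difference of -0.17. Both differences were smaller than the technical SD of 0.19 and the scanner error of 0.21. Across the 4131 genes that several probes read above background on the 2 arrays, the range of the difference within a gene had a median of 0.10 and a 90th percentile of 0.36, so the gap between the Ngb probes was ordinary.

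Cygb read 19581 ± 1958 on the Samd7 KO array and 19773 ± 1977 on the wild-type array, or log2 levels of 5.14 (KO) and 5.11 (wild type). Its difference of 0.04 was within the technical SD of 0.05. The raw signal was lower on the KO-labelled array and the scaled level higher, because the 75th percentile was also lower there. Of the genes in its range of levels, 26.1% were at least as high as Cygb, and of those in the range of Ngb, 44.7% were at least as low as Ngb.

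**Figure D2:**
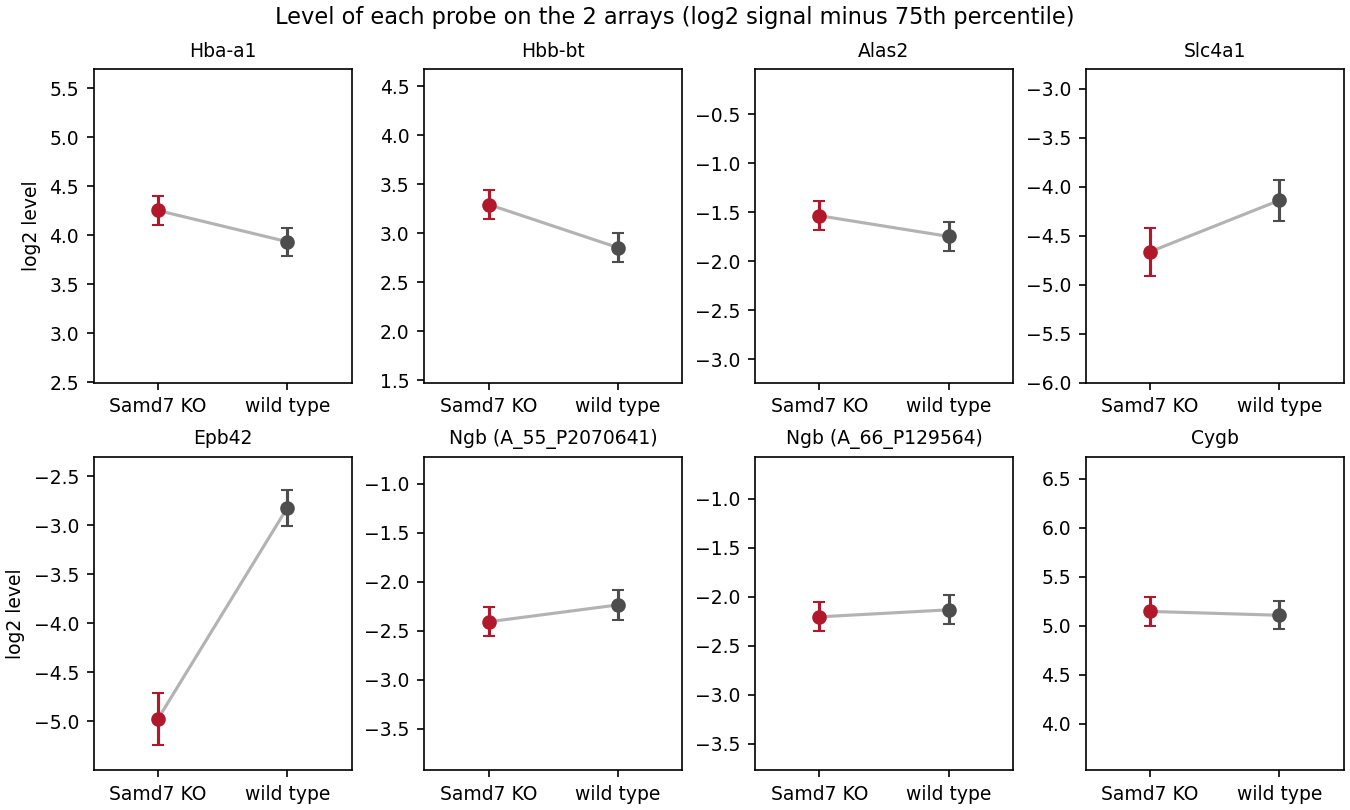
Level of each member probe on the array labelled Samd7 KO (red, left) and the array labelled wild type (grey, right), as log2 processed signal minus the 75th percentile of the array; error bars are the scanner's own error for the spot, and every panel spans the same height. The lines of Hba-a1, Hbb-bt and Alas2 run down from Samd7 KO to wild type, those of Slc4a1 and Epb42 run up, and those of Ngb and Cygb are close to flat.

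As groups, the 5 red cell genes with a probe had a median difference of 0.21 (range -2.15 to 0.44), the 2 neuronal globins -0.02, and the 15929 named genes above background on at least 1 array also -0.02. The red cell median thus stood 0.23 above that of the neuronal globins. That median is the value of Alas2, and the red cell genes did not move one way: 3 were higher and 2 lower on the KO-labelled array. The 3 that are not globins had a median of -0.52, which is the value of the dim Slc4a1 probe (-0.12 with normexp). Counted against thresholds, 0 of the 5 were at least 2-fold higher, where 1.58% of all named genes were, and 1 (Epb42) was at least 2-fold lower, where 1.37% were. At a smaller threshold of 0.32 on the log2 scale, a ratio of 5 to 4, 1 of the 5 (Hbb-bt) was higher, against 6.1% of all named genes, and 2 (Slc4a1 and Epb42) were lower, against 7.59%. Hba-a1 fell just short of that threshold, at 0.318 against 0.322 on the log2 scale. Neither neuronal globin passed either threshold.

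The background depended on brightness. Among genes at a mean level of 0 or more, where the adult globins lie, 3.37% were higher by at least 0.32. Between -4 and -2, where the mean level of Epb42 lies, 1.98% were at least 2-fold lower. Below -4, the range of Slc4a1, 32.2% were lower by at least 0.32, a share that includes Slc4a1.

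**Figure D3:**
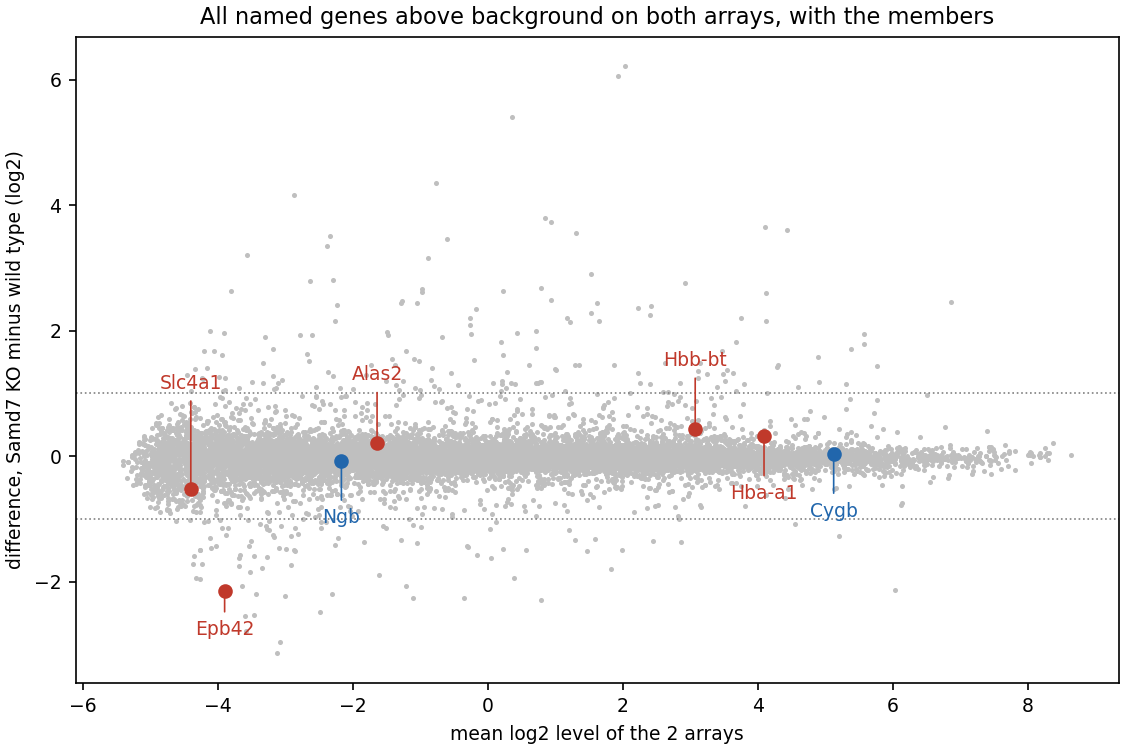
Difference between the arrays (Samd7 KO minus wild type, log2) against the mean log2 level for every named gene above background on both arrays (grey), with red cell genes in red and neuronal globins in blue; dotted lines mark 2-fold. Scatter widens towards dim probes, where Slc4a1 lies within the cloud and Epb42 below it at -2.15, while Hba-a1 and Hbb-bt lie at the upper edge of a narrow cloud.

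The 4 other globins above background on both arrays lay on the same side of 0 as Hba-a1 and Hbb-bt. Hba-a2, the second adult alpha globin gene, read 33636 on the Samd7 KO array and 28302 on the wild-type array, a difference of 0.30 (1.23-fold). Hbb-b2 read 3776 on the KO array and 3073 on the wild-type array, a difference of 0.35, and Hbb-b1 read 769 on the KO array and 623 on the wild-type array, a difference of 0.36. Hbb-b1 and Hbb-b2 are the beta chain genes of another mouse haplotype.

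All 5 adult globins with a probe therefore lay between 0.30 and 0.44, a width of 0.14, with a median of 0.35 (1.27-fold). The alpha globin genes are near-identical to each other, and so are the beta globin genes, so their probes may read each other's transcripts; this was not tested, and they are not 5 independent readings. The median difference of the spots around each of the 5 on the array lay between -0.05 and -0.004. Hbb-bh1, an embryonic beta-like globin, was close to background, with 24.6 on the Samd7 KO array and 19.0 on the wild-type array, and its difference of 0.42 was set against a technical SD of 0.33 and was 0.05 with normexp. The embryonic globins Hba-x and Hbb-y and the beta-like globin Hbb-bh2 were not well above background on either array. Nor were the theta globins Hbq1a and Hbq1b, or myoglobin (Mb), the oxygen store of muscle.

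**Figure D4:**
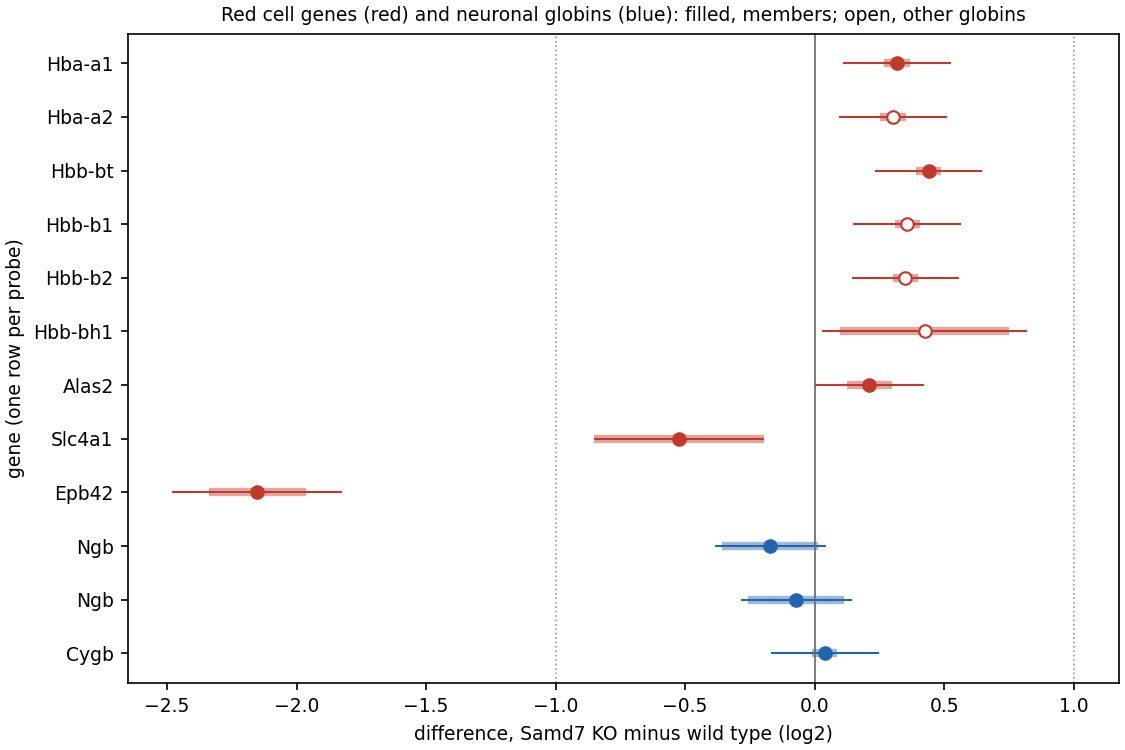
Difference between the arrays (Samd7 KO minus wild type, log2) for each probe of the members (filled) and of the other globins above background (open), red cell genes in red and neuronal globins in blue; thick bars are 1 technical SD, thin bars the scanner error, dotted lines 2-fold. The 5 adult globins fall together between 0.30 and 0.44, Epb42 lies alone at -2.15, and the bars of both Ngb probes and of Cygb reach 0 or come close to it.

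The other genes of the red cell programme centred near 0, below the adult globin median of 0.35. List medians are over genes above background on both arrays, and a gene above background on 1 array is counted with its bound. The 10 genes of heme synthesis outside Alas2, most of them used by every cell, were all above background with a median of -0.003, and 0 of 10 passed 0.32 on the log2 scale in either direction. Their highest were Uros (0.15) and Fech (0.04), the last enzyme of the pathway, and their lowest Slc25a38 (-0.16), a mitochondrial glycine carrier, and Alas1 (-0.14), the form of the first enzyme made in all tissues. Of 12 erythroid transcription and signalling genes, 9 counted as above background, none of the 9 passed 0.32, and their median was -0.06. Of the 8 above background on both arrays, Ldb1 (0.30), a GATA1 partner, and Sox6 (0.05) were highest, and Bcl11a (-0.20), which silences fetal globin in humans, and Zfpm1 (-0.14), the GATA cofactor, were lowest. Klf1, the erythroid factor of the CACCC box, was above background on the KO array only, with a bound of 0.13. The erythroid factors Gata1, Gfi1b and Nfe2 were not well above background on either array.

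Of 18 red cell membrane and skeleton genes, 12 counted as above background, with a median of -0.03. None of the 12 was higher by 0.32 and 2 were at least 2-fold lower: Aqp1, the water channel, at log2 levels of 1.24 on the Samd7 KO array and 2.72 on the wild-type array (-1.49), and Rhd, a Rhesus protein, which was above background on the wild-type array only, with a bound of -1.14 (that low or lower on the KO-labelled array). Gypc (-0.31), glycophorin C, was next lowest, and Ank1 (0.13), ankyrin, and Tmod1 (0.11), tropomodulin, were highest. Among those not well above background on either array were Icam4, Kel, Rhag and Slc43a1.

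Of 20 red cell cytosol and maturation genes (Fech is also in the heme synthesis list), 19 had a probe and 16 counted as above background, with a median of -0.06. One passed 0.32 upward, Isg20 (0.45), and 1 downward, Tent5c (-0.44). Of the 15 above background on both arrays, Tspo2 (-0.30) was next lowest and Slc25a37 (0.08), the mitochondrial iron carrier mitoferrin, next highest, and Rsad2, above background on the KO array only, had a bound of 0.19. Alox15, Trim10 and Trim58 were not well above background on either array. In the sum of linear levels relative to the 75th percentile, the red cell genes stood at 29.3 on the Samd7 KO array and 23.0 on the wild-type array, a sum made up mostly by the globins, and the neuronal globins, nearly all of it Cygb, at 35.6 on the KO array and 34.6 on the wild-type array.

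Markers of other cells were read beside these genes. Lens markers were mostly higher on the KO-labelled array: 8 of 10 were at least 2-fold higher, where 1.58% of all named genes were. Their median was 1.55, and their summed level was 20.0 on the Samd7 KO array and 4.88 on the wild-type array. The 8 were Crybb2 (2.80), Crygs (2.63), Cryba1 (2.35), Cryaa (2.25), Crybb1 (1.55), Crybb3 (1.22), Cryba4 (1.21) and Mip (at least 2.53). Of the rest, Bfsp1 was at 0.64 and Bfsp2 was slightly lower, at -0.15. Pigment epithelium markers were mostly lower, with 6 of 8 lower by at least 0.32 on the log2 scale, against 7.59% of all named genes. Their median was -0.42, and their summed level was 22.0 on the KO array and 29.8 on the wild-type array. Pmel (-0.81) and Tyrp1 (-0.68), pigment granule proteins, were the lowest, and Best1 (0.15) was higher. Whether these shifts have a part in the globin or Epb42 values was not tested.

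The lists of vessel and blood cell markers had medians below 0. All named genes above background on both arrays also had a median below 0 (-0.02, with quartiles of -0.11 and 0.06). Endothelial markers were above background in 10 of 10 with a median of -0.12 and a summed level of 37.6 on the Samd7 KO array and 39.7 on the wild-type array. Pericyte markers had a median of -0.14 and a summed level of 17.2 on the KO array and 25.6 on the wild-type array, and without Vtn (-0.79), the lowest, the sums were 6.55 on the KO array and 7.15 on the wild-type array. Platelet markers were above background in 5 of 10, with a median of -0.09 and a summed level of 0.964 on the KO array and 1.05 on the wild-type array. Pf4 (-0.75) and Itga2b (0.54) were the extremes, both at levels below -4 on each array, where the technical SD was 0.33. Granulocyte markers were above background in 7 of 10 with a median of -0.14 and a summed level of 90.8 on the KO array and 89.4 on the wild-type array, of which Csf3r made up 98.9% on the KO array and 98.7% on the wild-type array. Without Csf3r the sums were 0.999 on the KO array and 1.19 on the wild-type array. Among the granulocyte markers Mpo had a bound of -2.43 (that low or lower) and Retnlg a bound of 1.14 (that high or higher), each above background on 1 array only. Lymphocyte markers were above background in 4 of 8 with a median of -0.05 and a summed level of 1.29 on the KO array and 1.43 on the wild-type array. Not well above background on either array were the platelet genes Gp1ba, Gp5, Gp6, Gp9 and Ppbp, the granulocyte genes Cxcr2, Ltf and Ngp, and the lymphocyte genes Cd2, Cd3g, Cd79a and Ms4a1.

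Retinal genes were read as a check of the tissue label: 12 of 12 retina identity markers were above background on both arrays, with a median of -0.03 and a summed level of 520 on the Samd7 KO array and 544 on the wild-type array. Markers of ganglion cells, in which Ngb is known to be made, were above background in 9 of 9 with a median of -0.004 and a summed level of 135 on the KO array and 139 on the wild-type array. Fibroblast and meningeal markers, from cells that make Cygb, were above background in 7 of 8 with a median of -0.06 and a summed level of 17.9 on the KO array and 20.6 on the wild-type array.

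**Figure D5:**
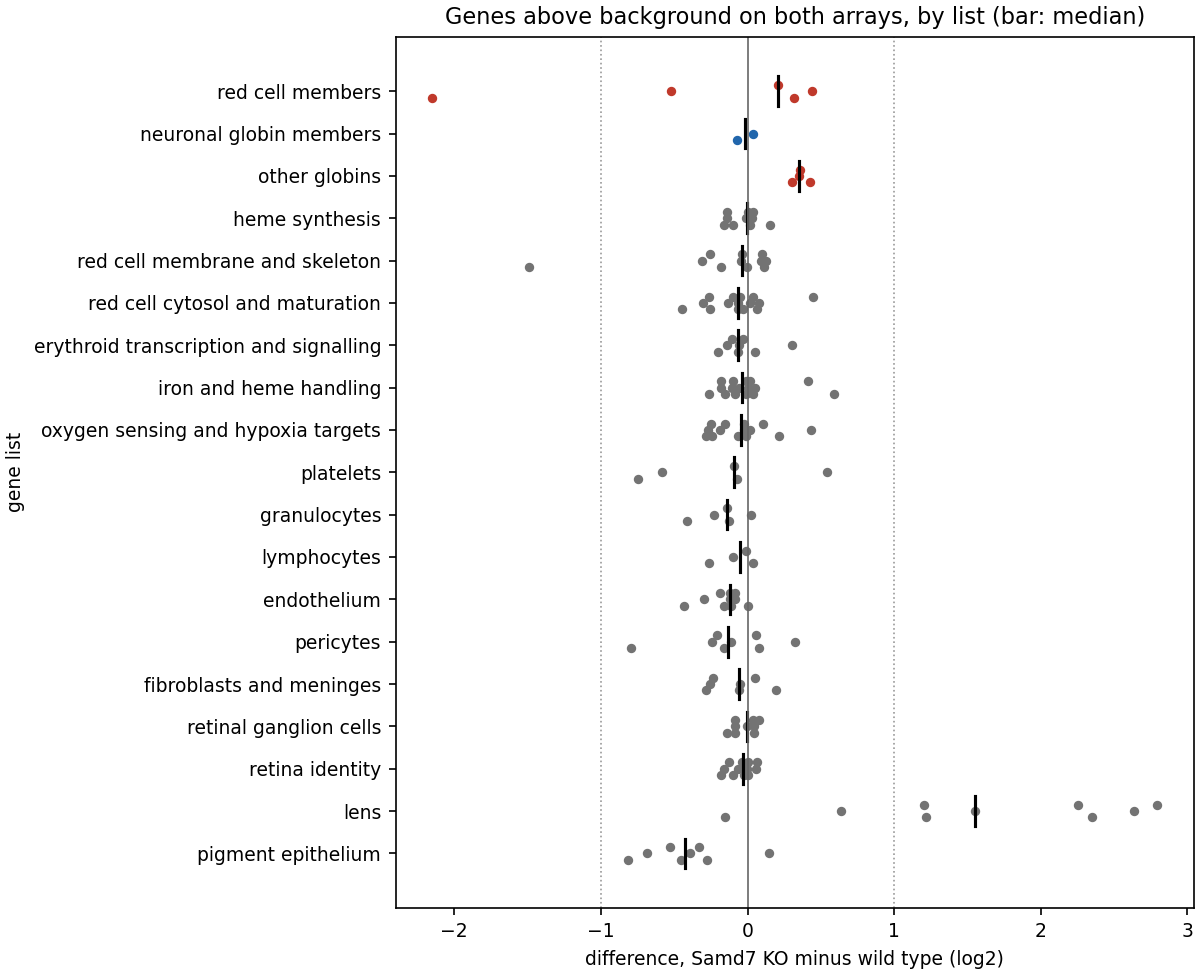
Differences (Samd7 KO minus wild type, log2) of the genes above background on both arrays in each list, 1 point per gene, with the median as a bar; dotted lines mark 2-fold. The red cell genes span -2.15 to 0.44, the other globins sit together at about 0.35, most lists centre near 0, lens markers lie mostly above 1 and pigment epithelium markers mostly below 0.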

How the data were processed

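The deposited scanner values are fluorescence intensity from Agilent Feature Extraction 11.5.1.1 (protocol GE1_1105_Oct12, per the file headers), for 1 array labelled Samd7 KO and 1 labelled wild type. The array design used mm9, per the same headers. The authors' deposited value table holds intensity values equal to the processed signal times a constant per array (median log2 ratio 1.37 on the KO array and 1.31 on the wild-type array); where the constant comes from is not stated, and the table served as an alternative only.

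Each array had 59305 non-control spots for 55681 probes. Spots flagged as outliers on either array (163 on the KO array, 119 on the wild-type array) were left out, log2 processed signals were scaled to the 75th percentile of each array, and spots of a probe were averaged. Of 55677 probes left, 28330 (50.9%) were named through RefSeq accessions (GRCm38.p6 table, names only) and 27347 were not. The brightest probe stood for a gene. A gene counted when well above background on at least 1 array, by the scanner's call. For a gene above background on 1 array only, the value is a bound against the higher of the other array's lowest above-background level and the gene's own level there. Each group has 1 array, so no test was run, and the technical SD comes from repeated spots.

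Named genes were the members, the 2 highest and 2 lowest of each red cell list, and any list gene at least 2-fold apart. The rule as planned took the 2 highest and 2 lowest of every list. For the lists of other cell types that part was not kept: a few extremes are named, and for some lists none. The members, the lists and this rule were chosen with earlier results of these data known. Alternatives used limma 3.58.1 in R 4.3.3, and other values Python 3.11.15 with pandas 2.3.3.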

Additional observations from a re-analysis of the deposited data

How the results depend on the processing

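The differences of the 7 measured members were recomputed 56 times: 0 changed sign and 3 moved by at least the technical SD. Those were Epb42 (-0.63 with normexp and -1.42 with plain subtraction of the local background) and Slc4a1 (-0.12 with normexp). Normexp with an offset of 50 shrinks dim differences by construction. Part of the 56 could hardly move, so the count overstates how far the values were tried. Median centring and the authors' values shift every gene almost alike, and a mean over probes leaves a member with 1 probe unchanged. Of the other globins, Hbb-bh1 was 0.05 and Hbb-b1 0.28 with normexp. Hba-a1 ranged from 0.32 to 0.35, on both sides of the smaller threshold (0.322), Hbb-bt from 0.42 to 0.46, Alas2 from 0.16 to 0.23, Ngb from -0.12 to -0.01 and Cygb from 0.02 to 0.07. The median of all named genes moved by no more than 0.03. The red cell median was 0.38 over the globins only and 0.31 with Hba-a2, Hbb-b1 and Hbb-b2 added, an alternative chosen after seeing the data, as were plain subtraction and the correction by neighbouring spots. Without Epb42 the red cell median was 0.26. The red cell median minus that of the neuronal globins lay between 0.17 and 0.25 under settings that kept the same genes. It was not recomputed for the other choices of red cell genes. The named genes at least 2-fold apart, 251 higher and 218 lower as reported, were 160 and 94 when above background on both arrays, 579 and 671 with no filter, and 120 and 45 with normexp. They were 971 and 1209 at the smaller threshold, and 79 and 58 at 4-fold. No paired analysis was possible because a group is 1 array. Signal over background limits Slc4a1, Epb42 and Hbb-bh1, which lie near the lowest levels the arrays measure.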

Other observations

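Iron and heme handling genes were read beside the red cell genes. Of 18, 17 counted as above background, with a median of -0.04, and 0 were 2-fold apart. Hmox1, heme oxygenase 1, which breaks heme down, was highest, at log2 levels of 0.36 on the Samd7 KO array and -0.23 on the wild-type array, a difference of 0.59. Hpx, hemopexin, which binds free heme, followed with a difference of 0.41. Hamp, hepcidin, the hormone that lowers iron export, was at -0.26 and Heph, a copper enzyme of iron export, at -0.18. The level of Hamp was below -4 on each array, where the technical SD was 0.33. Haptoglobin (Hp), which binds free haemoglobin, was above background on the wild-type array only, with a bound of -0.54 (that low or lower on the KO-labelled array). The haemoglobin receptor Cd163 was not well above background on either array.

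Of 16 oxygen sensing and hypoxia genes, 14 were above background, with a median of -0.05, and 0 were 2-fold apart. Egln1, the main oxygen-sensing prolyl hydroxylase, was highest, at log2 levels of -0.65 on the Samd7 KO array and -1.08 on the wild-type array, a difference of 0.43, and Vhl followed at 0.21. Egln3 (-0.28) and Ankrd37 (-0.27), both hypoxia targets, were lowest. Epo, the hormone that drives red cell production, was not well above background on either array, nor was Car9, a hypoxia target.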
